A study of Ciona robusta with 16 samples.

Results

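KY21.Chr1.1417 is the gene of a RAF kinase in the ascidian *Ciona robusta*, with human BRAF as its closest match in the gene tables of the study. It is 1 of 18424 genes in the deposited tables and 1 of the 18388 that carry a KY21 identifier. The gene was chosen by its TPM and normalized counts in all 8 stages, which were already known, among them its lower level in the 16-cell embryo than in the fertilized egg and in the larva than in the late tailbud. Its own levels and changes are therefore given as a description and without a p-value.

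The RNA came from whole wild-type embryos, with 2 libraries of poly(A)-selected, strand-specific RNA at each of 8 stages. Sampling began with eggs before (unfE, 0 h) and 0.4 h after (fertE) fertilization. Embryos were then taken at the 16-cell stage at 2.65 h (cell16), as gastrulation began at 4.5 h (iniG), as late neurulae at 7.4 h (latN), and as tailbuds of the middle II stage at 10.9 h (midTII) and of the late II stage at 13.5 h (latTII). Hatched larvae were taken at 17.5 h. Each library was made from about 150 pooled embryos. At each stage 1 library came from the fertilization that was also used for proteomics and the other from a separate time course, and the replicate numbers do not say which is which.

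RAF is the kinase that links activated RAS to MEK. An FGF ligand activates its receptor tyrosine kinase, adaptors and the exchange factor SOS load RAS with GTP, RAS recruits RAF to the membrane, and RAF phosphorylates MEK, which phosphorylates ERK. In ascidian embryos this cascade is known for inducing neural, mesenchyme and notochord fates during cleavage stages, and ephrin signals through Eph receptors are known to oppose it. RAF is held inactive by phosphorylation and by proteins that bind the phosphorylated form, and scaffolds such as KSR hold RAF, MEK and ERK together.

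The libraries held 23.1 to 33.4 M estimated counts, with a median of 26.2 M. Stage labels were checked against genes with known timing. CCNB3, a B-type cyclin, stood at a TPM (a length-corrected share of the transcripts in a library) of 231 ± 4.53 (SD, n = 2) in the fertilized egg and 22.0 ± 6.84 in the 16-cell embryo. The muscle gene TNNI1, a troponin subunit, rose from 4.79 ± 0.205 TPM in unfertilized eggs to 2190 ± 92.1 TPM in larvae, and both MYL1 rows, ACTC1 and MYH7 were also higher in larvae (edgeR, adjusted p at most 5.9e-08). CKM, a further muscle gene on the list, stood at only 8.94 ± 0.604 TPM in unfertilized eggs and 11.3 ± 1.94 TPM in larvae. Replicates of a stage differed by far more than sampling noise, with a chi-square per gene of 37.2 to 103, so none were taken as copies of each other.

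RAF transcript was present in every library, and its level was highest in eggs and lowest in larvae when given as TPM. In unfertilized eggs the RAF level was 147 TPM in replicate 1 and 144 TPM in replicate 2. In fertilized eggs it was 156 and 128 TPM. The 4 egg libraries were the highest of all 16. In 16-cell embryos the RAF level was 81.8 and 87.7 TPM, and in initial gastrulae it was 92.4 and 94.2 TPM. The late neurula libraries had 69.3 and 76.2 TPM. From the late neurula to the late tailbud the libraries of neighbouring stages overlapped. The middle tailbud libraries had 61.1 and 70.2 TPM, and the late tailbud libraries 69.4 and 92.4 TPM. In larvae the RAF level was 49.1 and 48.2 TPM. Both larva libraries lay below every other library. With whole embryos, fewer cells that carry the transcript and less transcript per cell cannot be told apart.

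**Figure D1:**
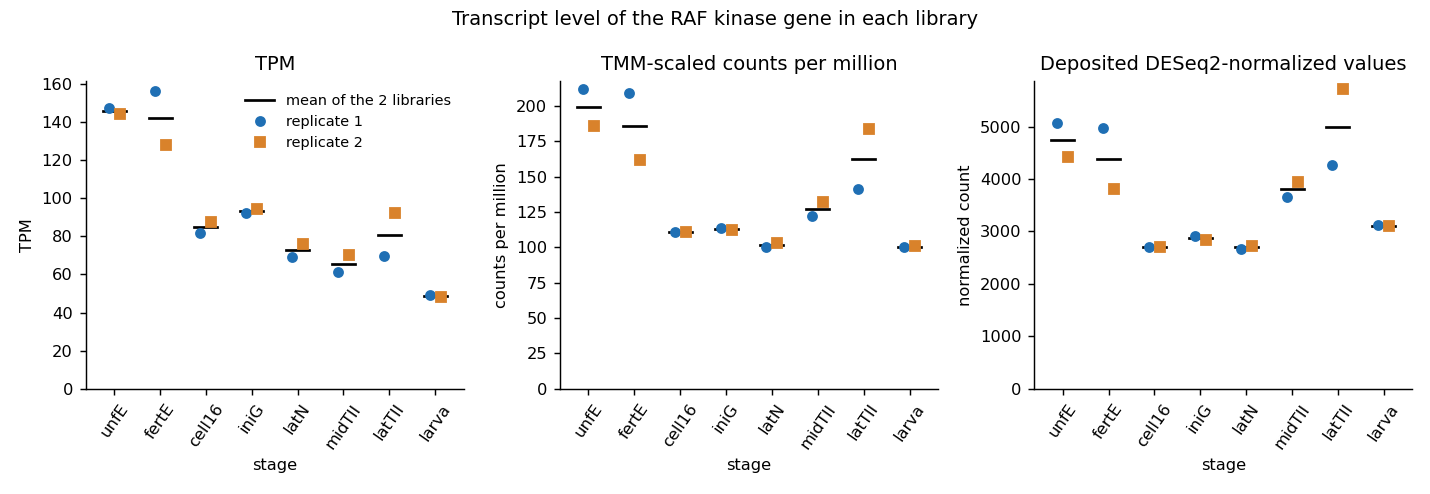
Level of the RAF kinase gene in each of the 16 libraries, by stage, as TPM (left), as CPM, counts relative to the library total after scaling with TMM factors (middle) and as the DESeq2-normalized values deposited by the authors (right). Circles and squares are replicates 1 and 2, and bars are the mean of the 2 libraries. On the TPM axis the 4 egg libraries lie between 128 and 156 and the larva libraries at 49.1 and 48.2, while on the DESeq2-normalized axis the late tailbud libraries, at 4262 and 5715, stand as high as the eggs.

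Ordered by mean TPM, the stages ran from unfE (146 ± 2.20, SD, n = 2) and fertE (142 ± 20.1) through iniG (93.3 ± 1.3), cell16 (84.7 ± 4.15), latTII (80.9 ± 16.3), latN (72.7 ± 4.86) and midTII (65.7 ± 6.46) to larva (48.6 ± 0.634). The neighbours in this order whose libraries overlapped were unfE with fertE, cell16 with latTII, latTII with latN, and latN with midTII. The libraries did not overlap between fertE and iniG, between iniG and cell16, or between midTII and larva. Agreement of the replicates differed by stage. The RAF level of replicate 2 over that of replicate 1 was 0.979 in unfE, 1.02 in iniG and 0.982 in larva, but 0.818 in fertE and 1.33 in latTII. In fertE 60.0% of genes had a smaller gap between replicates than RAF, and in latTII 60.9% did, so both gaps were close to that of the median gene. The RAF counts behind these values ran from 1981.6 to 7578.5 estimated fragments per library, which, taken as read counts, gives a counting error of 1.15% to 2.25%, far below the replicate gaps in fertE and latTII.

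The order of the stages depended on how libraries were scaled. In the DESeq2-normalized values, which divide counts by 1 size factor per library, the mean RAF level was highest in latTII at 4988 ± 1030 (SD, n = 2). It was 4737 ± 459 in unfE and 4386 ± 817 in fertE, and these stages overlapped with latTII. The middle tailbud followed at 3801 ± 197 and the larva at 3112 ± 18.6. The lowest means on this scale were those of iniG at 2872 ± 47.7, cell16 at 2704 ± 11.9 and latN at 2697 ± 38.5, the last pair with overlapping libraries. The larva, lowest of all by TPM, thus lay above 3 stages by DESeq2-normalized value. With TMM scaling of the counts, the RAF level ran from 199 ± 18.6 CPM in unfE to 101 ± 0.808 in larva, and latN at 102 ± 1.89 overlapped with larva.

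These scales are not separate measurements of RAF. Across 7130 genes with at least 100 counts in every library, the deposited count was TPM multiplied by 1 factor per gene and 1 factor per library, within 0.01 on the log2 scale for 100% of the genes, and for RAF within 2.4e-05. A ratio of counts to TPM in these tables therefore carries no information on which RAF transcript variants were present. The log2 change of this ratio for RAF from unfE to larva, 0.000, is a property of the tables. Between stages the scales differed only by a shift that all genes shared.

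RAF was lower in the 16-cell embryo than in the fertilized egg on each scale. Its TPM in cell16 was 1.68-fold lower than in fertE, a log2 change of -0.75 with a spread of 0.22 (SD of the difference, n = 2 and 2). The drop was 1.62-fold by DESeq2-normalized value and 1.67-fold by TMM CPM. In each case both 16-cell libraries lay below both fertilized egg libraries. Between libraries numbered replicate 1 the log2 change in TPM was -0.94, and between those numbered replicate 2 it was -0.55. Of the fertilized egg libraries, replicate 1 had the higher RAF level. Fitted on the counts of all 16 libraries with edgeR, the log2 change was -0.74 ± 0.16 (SE). Without fertE replicate 1 it was -0.55, and without fertE replicate 2 it was -0.91. From unfertilized to fertilized egg, the step before, the fitted log2 change was -0.10 ± 0.16 and the libraries overlapped on every scale.

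This change was set against all genes detected in both stages, meaning a TPM of at least 2 in all 4 libraries. The median of 8871 such genes changed by -0.07 in log2 TPM and by -0.01 in log2 DESeq2-normalized value. RAF lay 0.68 below this median on either scale. A more negative change in TPM was seen in 6.65% of these genes, and a more negative fitted change in 12.8% of all 14643 genes that were tested for changes between stages. The position of RAF within each library moved in the same way. In unfE 87.1% ± 2.29 (SD, n = 2) of detected genes had a lower TPM than RAF and in fertE 84.2% ± 5.53, against 68.4% ± 0.418 in cell16. The number of detected genes hardly differed between these stages, from 9305 to 9558 per library in unfE and from 9336 to 9477 in cell16.

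From the 16-cell embryo to the late neurula the changes of RAF were small. The fitted log2 change was 0.03 ± 0.16 from cell16 to iniG and -0.15 ± 0.16 from iniG to latN. By TPM the second of these was -0.36, but the median gene of that step changed by -0.38 in TPM, and RAF lay 0.02 above the median. In latN 75.6% ± 0.609 of detected genes had a lower TPM than RAF.

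From the late neurula to the middle tailbud, RAF changed in opposite directions on different scales. Its log2 change was -0.15 in TPM, with overlapping libraries, and 0.50 in DESeq2-normalized value, with both midTII libraries above both latN libraries. The shift between the scales was shared by all genes. The median of 9903 genes changed by -0.56 in log2 TPM and by 0.09 in log2 DESeq2-normalized value, a difference of 0.65 between scales. Relative to the median gene, the log2 change of RAF was 0.41 on both scales, and 67.2% of genes lay below it. The share of detected genes below RAF went from 75.6% ± 0.609 in latN to 80.4% ± 0.631 in midTII, a difference larger than the spread of the libraries.

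From the middle to the late tailbud the log2 change of RAF was 0.30 in TPM, with overlapping libraries, and 0.39 in DESeq2-normalized value. Relative to the median gene it was 0.38. This step rested on latTII replicate 2, the library with 92.4 TPM. The fitted log2 change was 0.35 ± 0.16 with all libraries and 0.15 without that library. In latTII 83.0% of detected genes in replicate 1 and 86.9% in replicate 2 had a lower TPM than RAF, both above the 79.9% and 80.8% of the midTII libraries.

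RAF was also lower in the hatched larva than in the late tailbud, on each scale. Its TPM in larvae was 1.66-fold lower than in the late tailbud, a log2 change of -0.74 with a spread of 0.29 (SD of the difference, n = 2 and 2). The drop was 1.60-fold by DESeq2-normalized value and 1.61-fold by TMM CPM, and the libraries of the stages did not overlap on any of these scales. Between libraries numbered replicate 1 the log2 change in TPM was -0.50, and between those numbered replicate 2 it was -0.94. The fitted log2 change was -0.69 ± 0.16 with all libraries. Without latTII replicate 2 it was -0.49, and without latTII replicate 1 it was -0.87. The median of 10537 genes detected in both stages changed by -0.02 in log2 TPM, and RAF lay 0.71 below it. A more negative change was seen in 12.3% of these genes, and a more negative fitted change in 16.2% of all genes tested. The share of detected genes with a lower TPM than RAF was 85.0% ± 2.70 in latTII and 76.7% ± 0.236 in larvae.

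From unfertilized egg to larva the size of the decrease depended on the scale. RAF was 3.0-fold lower in larvae by TPM, 1.97-fold lower by TMM CPM and 1.52-fold lower by DESeq2-normalized value. No larva library overlapped an egg library on any of the 3 scales. The median of the 8376 genes detected in both stages changed by -1.29 in log2 TPM and by -0.31 in log2 DESeq2-normalized value. Relative to this median RAF changed by -0.30 on either scale, and 41.8% of these genes had a more negative change in TPM. This position depended on the genes compared. Over all 14643 genes tested, which include those detected at only some stages, the fitted change of RAF lay 1.24 below the median, and 29.4% of genes had a more negative one.

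**Figure D2:**
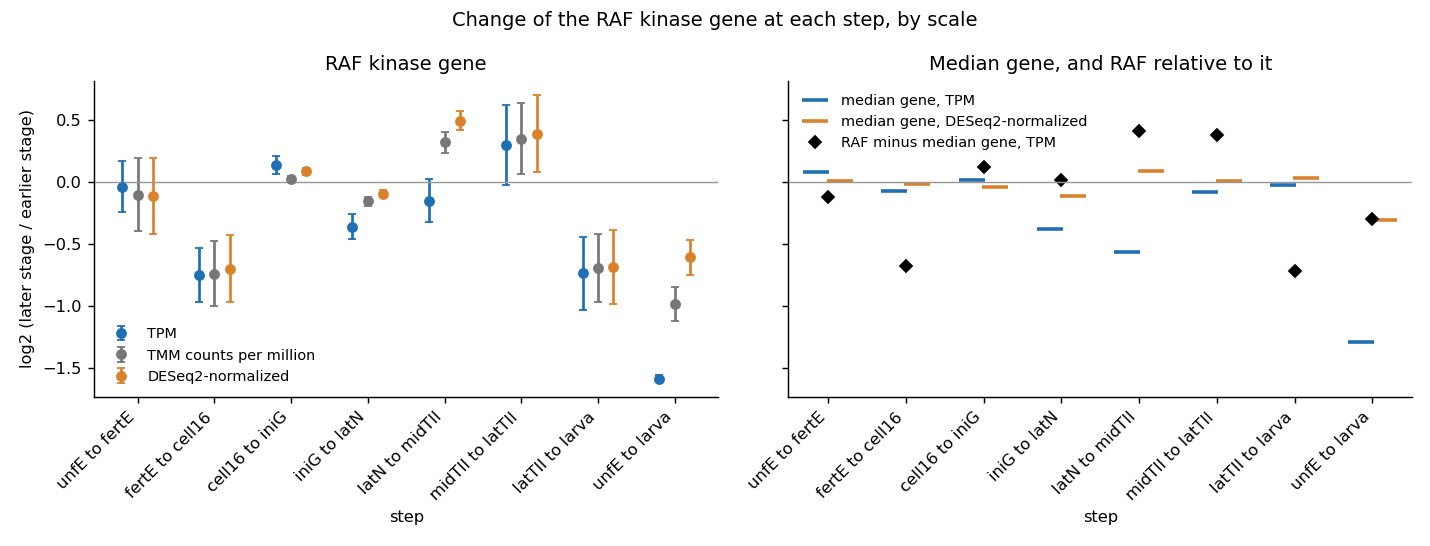
Log2 change of the RAF kinase gene at 7 successive steps and from unfE to larva (left), as TPM, TMM CPM and DESeq2-normalized value, with points for the ratio of stage means and error bars for the SD of the difference (2 libraries a stage). The right panel shows the median gene detected in both stages on the TPM and DESeq2-normalized scales and RAF relative to it, which was -0.68 from fertE to cell16, 0.41 from latN to midTII and -0.71 from latTII to larva.

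To set RAF among the genes it works with, 43 other genes of receptor, RAS, RAF, MEK and stress kinase signalling were followed, of which 28 carry a human and 15 a frog (*Xenopus*) name as closest match. Their roles are known from vertebrates. The list holds no FGF ligand, FGF receptor or classical ERK gene, and MAPK6, on the list, encodes an atypical ERK. In unfE RAF ranked 10 of 44 in TPM when counted with these genes, above the median of the list at 94.3 TPM. In fertE it also ranked 10, with a list median of 99.3 TPM. In cell16 it ranked 26 of 44, below the list median of 95.8 TPM. Its mean was below the list median in cell16 and, at 72.7 against 73.1 TPM, in latN. It was above the median again in iniG (rank 21, list median 90.4 TPM), midTII (rank 18), latTII (rank 17, 51.1 TPM) and larvae (rank 22, 45.2 TPM).

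That contrast can be read gene by gene within a library, where scaling has no effect. MAP2K1 encodes MEK, the substrate of RAF. The TPM ratio of RAF to MAP2K1 was 1.81 and 1.25 in the unfE libraries, 1.55 and 1.15 in fertE, 0.969 and 0.877 in cell16, and 1.77 and 1.69 in iniG. RAF transcript therefore outnumbered MEK transcript in eggs and gastrulae but not in 16-cell embryos. The ratio was 1.12 and 1.13 in latN, 0.548 and 0.680 in midTII, 0.534 and 0.542 in latTII, and 0.430 and 0.348 in larvae. In the tailbud stages and the larva, MEK transcript exceeded RAF transcript in all 6 libraries. With 2 libraries against 2, the smallest p that an exact two-sided permutation test can give is 0.333, so ratios are given without a test.

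MAP2K1 itself passed the test from cell16 to iniG and from latN to midTII. It fell from 92.2 ± 11 TPM (SD, n = 2) in cell16 to 54.0 ± 2.40 TPM in iniG, with a fitted log2 change of -0.88 ± 0.18 (SE, edgeR adjusted p = 0.0037). It rose from latN to midTII by 1.21 ± 0.18 in log2 (edgeR adjusted p = 2e-04). RAF had a fitted log2 change of 0.32 ± 0.16 at this step, with a direction that depended on the scale. From fertE to cell16 and from latTII to larva, the steps at which RAF was lower, MAP2K1 did not pass the test. Its fitted log2 changes there were -0.189 ± 0.175 and -0.205 ± 0.175, and for RAF itself no test result is given. The late tailbud ratio was nearly the same in both libraries, although RAF differed 1.33-fold between them, and MAP2K1 also had its higher value, 171 against 130 TPM, in replicate 2.

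Among the scaffolds, KSR2, a relative of RAF that binds MEK and ERK, had the highest correlation with RAF. Its TPM was 68.8 and 112 in unfE, 95.3 and 91.5 in fertE, 67.9 and 76.0 in cell16, 56.2 and 67.1 in iniG, 41.1 and 59.5 in latN, 48.4 and 47.6 in midTII, 45.3 and 43.0 in latTII, and 36.8 and 37.2 in larvae. Its fitted log2 changes from fertE to cell16 and from latTII to larva, -0.37 and -0.21, did not pass the test. The mean ratio of RAF to KSR2 stayed between 1.18 ± 0.0367 (SD, n = 2) in cell16 and 1.84 ± 0.437 in latTII, so RAF was above KSR2 at every stage. Across the 8 stage means of log2(TPM+1), Pearson's r between KSR2 and RAF was 0.932, against a median of 0.636 over 5167 genes with a TPM of at least 10 in every library. IQGAP1, a scaffold that binds RAF, MEK and ERK, ran the other way, from 103 ± 2.80 TPM in unfE to 202 ± 13.3 TPM in larvae, with r = -0.878. Both correlations share libraries and scaling with RAF and are descriptions over 8 points.

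**Figure D3:**
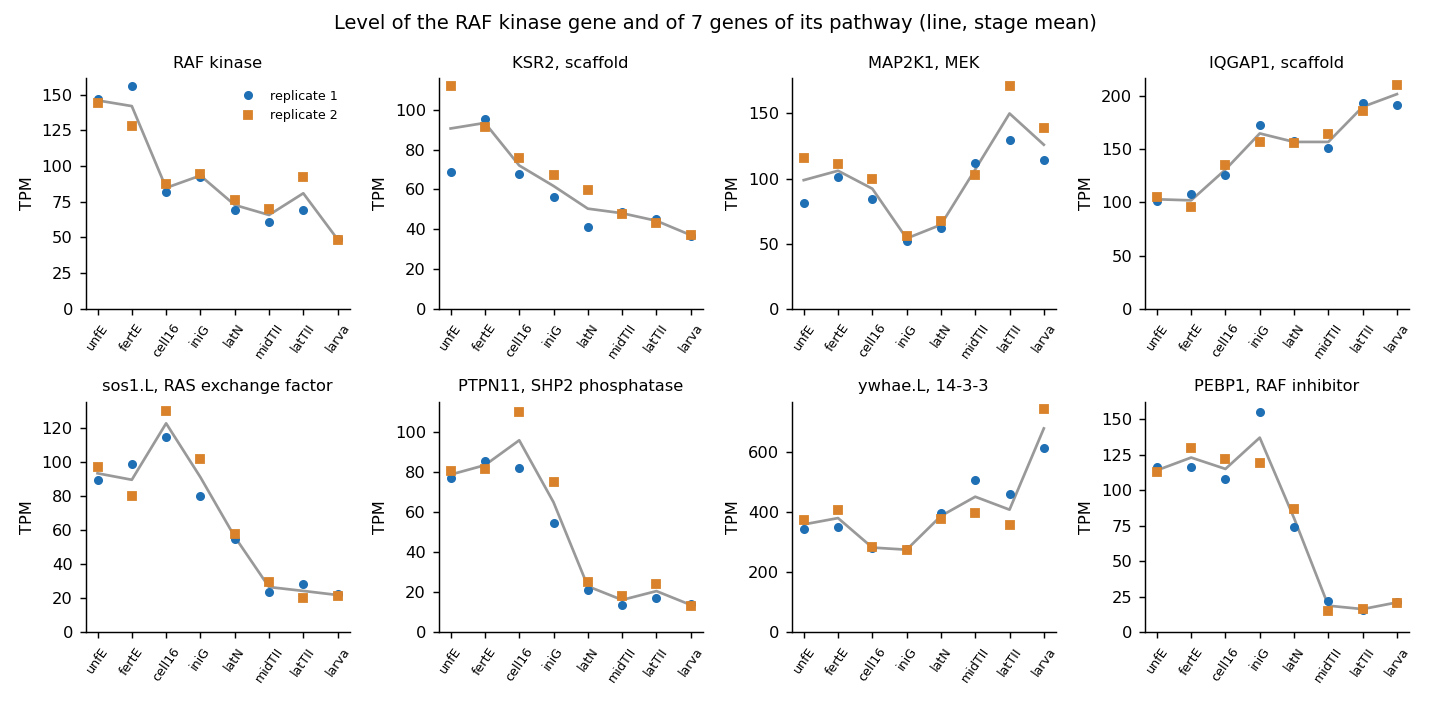
TPM of the RAF kinase gene and of 7 genes of its pathway in each library, by stage, with circles for replicate 1, squares for replicate 2 and a line through the stage means. RAF and KSR2 have their lowest values in the larva, at 48.6 and 37.0 TPM, whereas IQGAP1 and ywhae.L have their highest there, at 202 and 678 TPM, and MAP2K1 is lowest in iniG at 54.0 TPM.

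Upstream of RAF, the exchange factor gene sos1.L and the phosphatase gene PTPN11 (SHP2, needed for RAS activation) were not lower in the 16-cell embryo. Their TPM was 89.8 ± 13.1 and 83.4 ± 3.03 (SD, n = 2) in fertE and 123 ± 10.3 and 95.8 ± 19.6 in cell16, and neither passed the test at that step. The RAS-family gene mras.L went the other way, from 216 ± 5.37 to 153 ± 27.7 TPM. Its fitted log2 change, -0.48 ± 0.22, did not pass the test either. The RAF to sos1.L ratio was 1.58 and 1.59 in fertE and 0.709 and 0.675 in cell16. It was 2.58 and 2.36 in midTII, and sos1.L fell from latN to midTII (log2 change -0.61 ± 0.18, edgeR adjusted p = 0.022). For PTPN11 the mean ratio went from 1.70 ± 0.179 (SD, n = 2) in fertE through 0.899 ± 0.141 in cell16 to 3.17 ± 0.177 in latN. PTPN11 passed the test as lower at both steps between cell16 and latN (log2 changes -0.67 ± 0.20 and -1.29 ± 0.21, edgeR adjusted p = 0.034 and 0.00041). RAF had fitted changes of 0.03 and -0.15 at these steps. The gene mras.L stood above RAF in eggs, with a mean ratio of 0.715 ± 0.00271 in unfE, and below it in latTII, where the mean ratio was 1.56 ± 0.253.

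Of the genes whose products act on RAF, PEBP1, ppp5c.L and ywhae.L were set beside it in each library. PEBP1, the RAF kinase inhibitor protein, stood at 137 ± 25.6 TPM in iniG and 18.8 ± 4.84 TPM in midTII. The RAF to PEBP1 ratio was 1.27 and 1.28 in unfE and 1.35 and 0.986 in fertE. It was 0.760 and 0.719 in cell16, 0.595 and 0.792 in iniG, 0.938 and 0.875 in latN, 2.75 and 4.56 in midTII, 4.32 and 5.52 in latTII, and 2.30 and 2.30 in larvae. RAF transcript was thus above that of its inhibitor in 3 of the 4 egg libraries, below it in the libraries from cell16 to latN and above it again in those from midTII on. PEBP1 fell from latN to midTII by 1.61 ± 0.23 in log2 (SE, edgeR adjusted p = 0.00019). The phosphatase gene ppp5c.L, whose product removes an activating phosphate from RAF in vertebrates, fell at the same step (log2 change -0.97 ± 0.17, edgeR adjusted p = 0.00074), and the mean RAF to ppp5c.L ratio went from 0.680 ± 0.114 to 1.66 ± 0.119. The gene ywhae.L, whose product binds phosphorylated RAF, exceeded RAF in all libraries, with a mean ratio of 0.407 ± 0.0304 in unfE and 0.0724 ± 0.0106 in larvae. From latTII to larva, where RAF was lower, ywhae.L rose (log2 change 0.78 ± 0.18, edgeR adjusted p = 0.018).

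**Figure D4:**
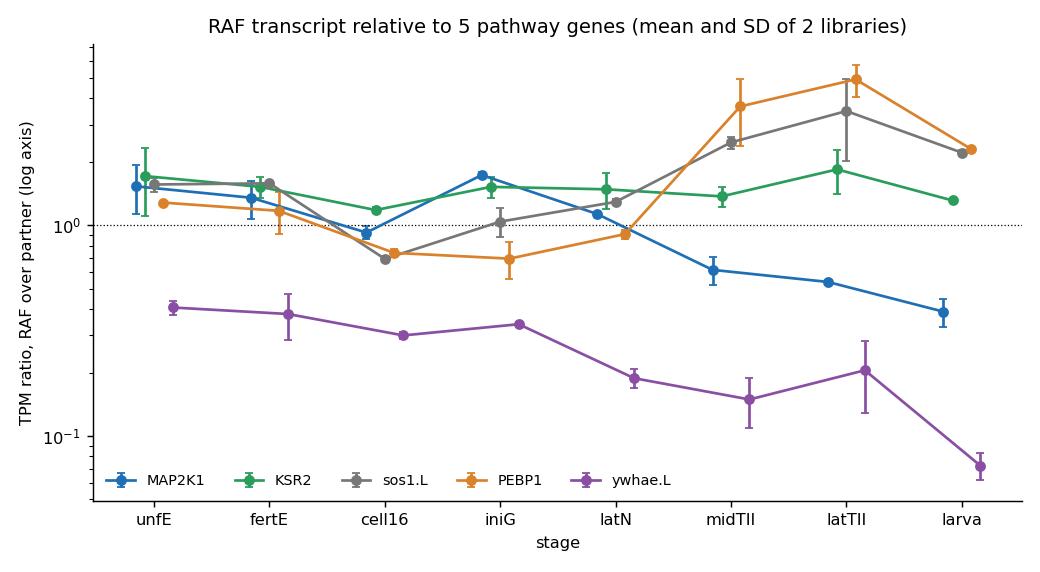
Ratio of RAF TPM to the TPM of 5 pathway genes in the same library, by stage, on a log axis, with points for the mean and error bars for the SD of 2 libraries. The ratio to MAP2K1 goes from 1.53 in unfE to 0.389 in the larva and that to ywhae.L from 0.407 to 0.0724, while the ratio to PEBP1 goes from 0.907 in latN to 4.92 in latTII and that to KSR2 stays between 1.18 and 1.84.

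At the step at which RAF was lower in the 16-cell embryo, as at the step before, edgeR called no pathway gene and few genes of any kind. For RAF itself no test result is given. Of the 43 genes 42 had enough counts for the test, and GRB2, at 0.661 and 6.58 TPM in unfE and below 1 TPM in every other library, did not. From unfE to fertE no pathway gene was called higher or lower by edgeR (background 0% of 14643 genes higher and 0.00683% lower), 0 had an unadjusted p under 0.05 (background 0.533% higher and 1.90% lower), and 0 were called by DESeq2 (background 0% and 0.239%) or by limma on log2(TPM+1) (background 0% and 0%). From fertE to cell16 again none was called higher or lower by edgeR (background 1.00% and 1.17%). At that step 11 had an unadjusted p under 0.05, 6 of them higher and 5 lower (background 5.11% and 6.73%), limma on log2(TPM+1) called 0 (background 0.758% and 1.10%) and DESeq2 called 3, all higher in cell16 (background 2.73% and 2.49%). The median fitted log2 change of the list at this step was 0.00, against -0.01 for all genes and -0.74 for RAF.

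From cell16 to iniG 4 of 42 pathway genes were higher and 5 lower (background 11.6% and 7.90%). EPHA7 and the EPHA4 gene KY21.Chr1.188, both Eph receptors, were higher, with log2 changes of 2.44 ± 0.26 and 1.35 ± 0.26, and so were PHB, prohibitin, and PPP2CA, the catalytic subunit of the phosphatase PP2A. EFNB3, an ephrin ligand, and PPP2R5A, a regulatory subunit of PP2A, were lower, with log2 changes of -1.92 ± 0.27 and -2.01 ± 0.15, as were PTPN11, MAP2K1 and ppp1cb.S. RAF lay between these groups. Its change was 0.07 below the median of all 14643 genes tested and, in log2 TPM, 0.12 above the median of the genes detected in both stages, so its side of the median differed between these sets of genes. From iniG to latN 8 were higher and 7 lower with TMM scaling (background 15.7% and 14.2%), against 5 and 15 with library totals (background 12.8% and 22.1%). Fewer pathway genes and fewer of all genes were called at this step with either library of either stage left out. From latN to midTII 9 were higher and 11 lower (background 16.8% and 16.8%), against 11 and 8 with RLE factors (background 20.2% and 12.6%) and 5 and 21 with library totals (background 10.9% and 29.7%). The split by direction thus depended on the scale, as the direction of RAF did at this step. Here too, leaving out either library of either stage gave fewer calls among the pathway genes and among all genes.

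From midTII to latTII 1 pathway gene was higher and 2 were lower (background 4.58% and 4.48%). The higher gene was ARRB1, an arrestin that can hold RAF and ERK, and the lower ones were the EPHA4 gene KY21.Chr1.189 and PPP1CB. Fewer pathway genes and fewer of all genes were called with either library of either stage left out. From latTII to larva, where RAF was lower, 4 were higher and 3 lower (background 3.27% and 5.18%), against 5 and 2 with library totals (background 4.35% and 3.59%). The higher genes were ARRB1, the SRC gene KY21.Chr1.941, ywhae.L and PPP2R5A, with log2 changes of 0.95 ± 0.17, 0.80 ± 0.16, 0.78 ± 0.18 and 0.68 ± 0.14. The lower genes were EFNB3, the EPHA4 gene KY21.Chr1.189 and PPP2R3A, a further regulatory subunit of PP2A, with log2 changes of -1.09 ± 0.26, -0.73 ± 0.19 and -0.93 ± 0.13. The fitted log2 change of RAF at this step was -0.69 ± 0.16, while the median of the list was -0.08 and that of all genes 0.04. Without latTII replicate 2, larva replicate 1 or larva replicate 2, fewer pathway genes and fewer of all genes were called at this step. Without latTII replicate 1, more of both were called.

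From unfE to larva 15 pathway genes were higher and 17 lower with TMM scaling (background 38.3% and 33.0%), against 19 and 13 with RLE factors (background 43.2% and 26.5%) and 8 and 24 with library totals (background 31.8% and 41.8%). Among the 15, the SRC gene KY21.Chr1.2221 was at 0 TPM in both unfE libraries and at 1.04 and 0.800 TPM in larvae, below the level taken as detected. With TMM scaling, 4 of the 5 genes of the RAS family and its lipid modification were lower and none higher. Of the 7 kinases and scaffolds 4, this SRC gene included, were higher and 1, KSR2, was lower. The 13 genes that act on RAF split into 5 higher and 5 lower. Differences between the roles were not tested. The fitted log2 change of RAF from egg to larva was -0.98 ± 0.16, beside -0.67 ± 0.19 for KSR2 and -1.11 ± 0.22 for mras.L.

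The genes whose stage pattern was most like that of RAF were sought among 5167 KY21 genes with a TPM of at least 10 in every library, by Pearson's r across the 8 stage means of log2(TPM+1). The 5 highest were KY21.Chr14.64 (r = 0.972), bag3.L (0.965), osbpl9.L (0.965), rapgef2.S (0.964) and fndc3a.L (0.963), and the next with a symbol among the 5 highest that carry one was fam117b.L (0.960). The gene rapgef2.S, which encodes an exchange factor for the small GTPase RAP, stood at 117 ± 18.1 TPM (SD, n = 2) in unfE, 69.6 ± 14.6 TPM in cell16, 69.7 ± 21.1 TPM in latTII and 35.7 ± 0.372 TPM in larvae. The gene bag3.L, a cochaperone, stood at 80.8 ± 11.1 TPM in unfE, 56.1 ± 11 in cell16, 33.1 ± 6.86 in latN, 49.4 ± 18.3 in latTII and 20.5 ± 5.69 in larvae.

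High correlations with RAF were more frequent on the TPM scale than in DESeq2-normalized values. In all, 83 of the 5167 genes had r above 0.9 in log2(TPM+1), where the median r of all candidates was 0.636. In DESeq2-normalized values 3 did, and the median r was -0.012. Of the 5 genes named, 2 were also among the 5 highest on that scale, 2 when the 16 libraries were used in place of stage means, and 2 by Spearman's rho. On the DESeq2-normalized scale rapgef2.S had the highest r of all candidates, 0.927.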

How the data were processed

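Per the labels and methods, the authors used FastQC and Trim Galore on the paired poly(A) reads and quantified KY21 transcripts with Salmon. The authors deposited estimated counts per gene to 1 decimal, TPM that sum to 1000000 per library with 36 Ensembl rows included, and normalized signal values, which are rounded counts divided by 1 DESeq2 size factor per library. The Ensembl rows took 18.3% to 27.4% of TPM. The deposited estimated counts equalled TPM times 1 factor per gene and per library, so the 3 tables hold the same measurement on different scales, and the counts fed to the test had been corrected for length. This may move their precision away from that of read counts.

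Counts were rounded and fitted in a single model over all 16 libraries by edgeR 4.0.16 under R 4.3.3 (filterByExpr, TMM factors, robust quasi-likelihood test, Benjamini-Hochberg adjustment over 14643 genes, adjusted p under 0.05). Standard errors were taken as the absolute log2 change over the square root of F. The test was checked on simulated data. Alternatives used RLE factors, library totals, DESeq2 1.42.0, limma 3.58.1 on log2(TPM+1) and log2(TPM+0.1), no filter, a minimum of 50 counts in 2 libraries, calls limited to log2 changes of 1 or more, the 4 libraries of a step, a replicate block, and each library left out. Levels and ratios come from Python 3.11.15, pandas 2.3.3 and numpy 2.4.6.

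The gene and the lists were chosen with earlier results of these data known. Symbols are those of the nearest human or frog gene named in the study's tables, which were held in part (3827 genes with a symbol), and gene positions and sequences are not given. The text names the RAF gene, pathway genes that passed the test at a step described, 8 fixed partners of RAF (MAP2K1, KSR2, sos1.L, PTPN11, mras.L, ywhae.L, PEBP1 and ppp5c.L), stage check genes, and the 5 genes (and 5 with a symbol) of highest r with RAF. IQGAP1 in the description of scaffolds passed the test from latN to midTII and from unfE to larva. GRB2 and the SRC gene KY21.Chr1.2221 were named after their values were seen.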

Additional observations from a re-analysis of the deposited data

How the results depend on the processing

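The steps of RAF from unfE to fertE, from fertE to cell16, from midTII to latTII and from latTII to larva moved by less than 1 SD between replicates under each alternative. From latN to midTII the log2 change of 0.32 reversed to -0.15 by mean TPM and mean log2(TPM+1), -0.094 by TPM of KY21 rows and -0.10 with library totals, and was 0.50 with RLE factors, DESeq2 and the DESeq2-normalized values. From unfE to larva it moved from -0.98 to -0.61 with RLE factors, DESeq2 and the DESeq2-normalized values, -1.56 with library totals, -1.58 and -1.59 by TPM and TPM of KY21 rows, and -1.57 by log2(TPM+1). From cell16 to iniG it moved from 0.028 to 0.087 with RLE factors, DESeq2 and the DESeq2-normalized values, 0.06 with library totals and 0.14 by TPM and log2(TPM+1). From iniG to latN it moved from -0.154 to -0.091 with RLE factors, DESeq2 and the DESeq2-normalized values, -0.39 with library totals and -0.36 by each TPM scale. These moves carry over the shift that all genes share between scales.

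With 1 library left out, the fitted log2 change of RAF ran from -0.30 to 0.07 (unfE to fertE), -0.91 to -0.55 (fertE to cell16), 0.01 to 0.04 (cell16 to iniG), -0.17 to -0.14 (iniG to latN), 0.26 to 0.37 (latN to midTII), 0.15 to 0.53 (midTII to latTII), -0.87 to -0.49 (latTII to larva) and -1.08 to -0.89 (unfE to larva). A stage left with 1 library was assumed to vary like the others. The log2 change of the RAF to MAP2K1 ratio from unfE to larva, -1.96, ran from -2.22 to -1.69, and that of the ratio of counts to TPM stayed at 0.000. From cell16 on, and from unfE to larva, a smaller share of all genes was called with a library left out. The exception was latTII to larva without latTII replicate 1. Pathway calls mostly moved the same way, but from cell16 to iniG they rose without iniG replicate 2 while the share of all genes fell. The count of pathway genes called ran from 6 to 11 from cell16 to iniG, 9 to 12 from iniG to latN, 11 to 16 from latN to midTII, 1 to 2 from midTII to latTII, 1 to 10 from latTII to larva and 28 to 29 from unfE to larva, and was 0 at the first 2 steps.

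Of the pathway genes, 5, 4, 7, 1, 1 and 20 also had a log2 change of at least 1, in the order of the steps from cell16 on and then unfE to larva. In that order 9.67%, 12.9%, 12.9%, 3.52%, 2.07% and 35% of all genes were called higher by this rule. The shares called lower were 4.22%, 7.18%, 9.27%, 2.1%, 3.03% and 26.4%. DESeq2 called 3 from fertE to cell16 (background 2.73% higher and 2.49% lower), 6 from midTII to latTII and 12 from latTII to larva. At the last 2 of these steps it called 8.55% and 6.73% of all genes given an adjusted p higher and 6.95% and 8.16% lower. With only the 4 libraries of a step, 9 were called from iniG to latN (background 15.5% and 10.4%) and 3 from latTII to larva (background 4.12% and 4.35%). The cause was not tested.

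Replicate numbers were not taken as pairs, since no label ties a number to a batch and there are only 2 numbers. Deviations of same-numbered libraries from their stage means correlated at 0.65 (unfE and fertE), 0.69 (fertE and cell16) and 0.57 (iniG and latN) and at 0.03 to 0.18 for the other steps. With a replicate block the log2 change of RAF was -0.74 from fertE to cell16 and -0.69 from latTII to larva, and 8 pathway genes were called at the latter, 10 from cell16 to iniG and 17 from iniG to latN. These counts were 7, 9 and 15 without it, and the others did not move. At these steps the block also raised the share of all genes called, both higher and lower, so the gain was not particular to the pathway genes. With 2 libraries a stage no outlying library could be tested for.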
